A study of Homo sapiens with 7 samples.

Results

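TNFAIP6 and 9 further genes of hyaluronan biology were followed across 7 RNA sequencing libraries of 769-P, an established human line from a clear cell kidney tumour. The genes were picked by name: TNFAIP6 because its level was already known to be higher in both pairs of Lat-M libraries than in PA, and HAS2, HAS3, CD44, HMMR, HYAL1, HYAL2, HYAL3, VCAN and PTX3 for their function. Earlier results of these data were known when the genes were chosen. Of these 10 symbols, 9 were among the 33117 genes of the deposited tables, each under 1 Ensembl identifier, and all 9 were among the 16724 genes tested. HAS2 was not analysed here. The identifiers were ENSG00000123610.3 for TNFAIP6, ENSG00000163661.3 for PTX3, ENSG00000038427.11 for VCAN, ENSG00000103044.6 for HAS3, ENSG00000026508.12 for CD44, ENSG00000072571.15 for HMMR, ENSG00000114378.12 for HYAL1, ENSG00000068001.9 for HYAL2 and ENSG00000186792.11 for HYAL3. The groups were 769-P PA cells (3 libraries), an abbreviation that the labels leave unexplained, and 769-P Lat-M cells, named latent metastatic in the title of the series. The Lat-M libraries are numbered 1-1, 1-2, 2-1 and 2-2 and are treated as the pairs Lat-M1 and Lat-M2 (2 libraries each). All cells shared 1 culture medium, an RPMI type with fetal bovine serum, and no agent, genotype or time distinguishes them in the labels. The labels do not say how Lat-M cells were derived, whether the numbers 1 and 2 stand for separate lines or clones, or whether libraries came from separate cultures. The p-values therefore rest on the spread among these libraries alone, and it may be technical.

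Hyaluronan is a long sugar polymer of the matrix that synthases of the HAS family spin out through the plasma membrane and hyaluronidases cut. Cells hold and sense it through receptors such as CD44, while versican (VCAN) carries it into large proteoglycan aggregates. TNFAIP6, also called TSG-6, is a secreted protein that moves heavy chains of inter-alpha-inhibitor onto hyaluronan, and the pentraxin PTX3 cross-links the product in the matrix around the ovulated oocyte. TNFAIP6 and PTX3 are both known as genes that inflammatory cytokines induce.

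The 4 promoters below belong to the genes with the largest differences in Lat-M1, the rising TNFAIP6 and PTX3 and the falling HAS3 and VCAN. They are shown so that the genes that moved together in Lat-M1 can be set side by side as sequence. Each is the 250 bases before the RefSeq start in build GRCh38.p14, written 5′ to 3′ on the gene's own strand. The deposited tables hold no coordinates, and the submitters' notes name hg19. Capitals mark matches on either strand to the AP-1 motif TGANTCA or to the NF-kB motif.
TNFAIP6, chr2:151357342-151357591, plus strand: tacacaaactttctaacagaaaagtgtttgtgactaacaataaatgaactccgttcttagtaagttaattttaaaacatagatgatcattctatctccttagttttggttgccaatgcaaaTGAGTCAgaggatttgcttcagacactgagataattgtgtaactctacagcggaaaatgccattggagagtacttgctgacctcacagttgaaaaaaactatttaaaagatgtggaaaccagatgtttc
PTX3, chr3:157436600-157436849, plus strand: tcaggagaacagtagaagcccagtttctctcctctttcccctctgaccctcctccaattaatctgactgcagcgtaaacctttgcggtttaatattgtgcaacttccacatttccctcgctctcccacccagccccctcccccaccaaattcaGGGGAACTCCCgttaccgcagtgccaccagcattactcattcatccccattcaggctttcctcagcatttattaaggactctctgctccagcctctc
HAS3, chr16:69107290-69107539, plus strand: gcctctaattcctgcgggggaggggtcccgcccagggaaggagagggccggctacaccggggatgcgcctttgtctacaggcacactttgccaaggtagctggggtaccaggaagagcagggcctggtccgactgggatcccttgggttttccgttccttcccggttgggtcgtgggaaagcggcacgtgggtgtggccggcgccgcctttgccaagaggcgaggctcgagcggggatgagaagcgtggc
VCAN, chr5:83471494-83471743, plus strand: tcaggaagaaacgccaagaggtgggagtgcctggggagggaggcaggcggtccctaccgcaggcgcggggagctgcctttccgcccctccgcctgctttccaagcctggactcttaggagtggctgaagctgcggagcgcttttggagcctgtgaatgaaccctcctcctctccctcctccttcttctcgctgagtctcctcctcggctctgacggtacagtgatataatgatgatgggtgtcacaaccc

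The TNFAIP6 window held 1 AP-1 match, 129 to 123 bases before the start, and no NF-kB match. The PTX3 window held 2 overlapping NF-kB matches, 97 to 87 bases before the start, and no AP-1 match. Neither motif was in the HAS3 or VCAN window. Of 35116 promoter windows of the same length, 6.57% held the AP-1 motif and 9.96% the NF-kB motif. TNFAIP6 had 34.4% G and C and PTX3 51.6%, against 66.0% in HAS3, 60.8% in VCAN and a median of 58% over all windows. HAS3 and VCAN each held 1 match to the GC box GGGCGG, found in 42.6% of windows, and TNFAIP6 and PTX3 held none. This split did not extend to CD44, which also rose in Lat-M1. Its window had 62.4% G and C, 2 GC box matches and neither an AP-1 nor an NF-kB match. HYAL3, which passed the test against PA in neither pair, held an NF-kB match in 1 of its 2 entries. A match is a description of these letters. All 9 genes had an entry in the table, and HYAL3 had 2.

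Levels are normalised transcript abundances (TPM), a unit that accounts for transcript length and can be set side by side between genes. Log2 fold changes are differences in mean log2(TPM + 1). They came with a standard error (SE) from limma, a linear model fitted to all tested genes, with p-values adjusted by Benjamini-Hochberg over all of them and a threshold of 0.05. Depth is unknown, because TPM keeps no read counts. RMRP, RN7SK, RN7SL1 and RN7SL2, 4 structural RNAs, held 29.5 to 31.8% of the TPM in PA, 18.6 to 21.9% in Lat-M1 and 22.9 to 27.7% in Lat-M2. Over all tested genes, the median log2 fold change came to 0.16 for Lat-M1 against PA, 0.14 for Lat-M2 against PA and -0.011 for Lat-M2 against Lat-M1. A rise of that size is shared with most genes, and values after median-ratio scaling, which removes the shift, are given where they change a call. Of 10 kidney and renal cancer markers, PAX8, VIM and KRT18 were well above 1 TPM in every library. The hypoxia target CA9 did not pass 0.156 TPM and NDUFA4L2 did not pass 0.105 TPM. PAX2 was low, with means of 0.688 TPM in PA, 0.827 TPM in Lat-M1 and 1.61 TPM in Lat-M2. Of the 7 tested, 2 were higher and 2 lower in Lat-M1, against 33.2% and 11.6% of all tested genes. In Lat-M2 2 were higher and 1 lower, against 12.7% and 2.24%. LHX1 and KRT8 fell in Lat-M1 (-0.63 and -0.47, limma adjusted p = 0.00173 and 0.00998), CDH6 fell in Lat-M2 (-0.63, limma adjusted p = 0.00169), and KRT18 and KRT8 rose there (0.60 and 0.59, limma adjusted p = 0.00169 and 0.0164). Scaling gave 0 higher and 4 lower in Lat-M1 and 2 higher and 3 lower in Lat-M2, with these calls kept. All tested genes then split into 4000 higher and 3842 lower in Lat-M1, and 1245 higher and 1405 lower in Lat-M2. The kit that made each library, TruSeq or NEBNext, is not given, and its part in the results was not tested.

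TNFAIP6 was low in PA and many times higher in every Lat-M library. It stood at 2.02, 2.32 and 2.25 TPM in PA, at 41.8 and 44.2 TPM in Lat-M1 and at 31.3 and 26.7 TPM in Lat-M2. All 4 Lat-M values lay above all 3 PA values, and both Lat-M1 values lay above both Lat-M2 values. Its mean over the PA libraries was 2.2 ± 0.157 TPM (SD, n = 3). The Lat-M1 mean was 43 ± 1.72 TPM (SD, n = 2) and the Lat-M2 mean was 29 ± 3.28 TPM (SD, n = 2). This was 19.6-fold and 13.2-fold of PA, or 3.78 and 3.23 on the log2 scale. The gene was chosen for these differences, so they are described without a test. The difference between the pairs was not part of the choice, and TNFAIP6 was lower in Lat-M2 than in Lat-M1 by limma (log2 fold change -0.56 ± 0.097 SE, limma adjusted p = 0.00408).

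**Figure D1:**
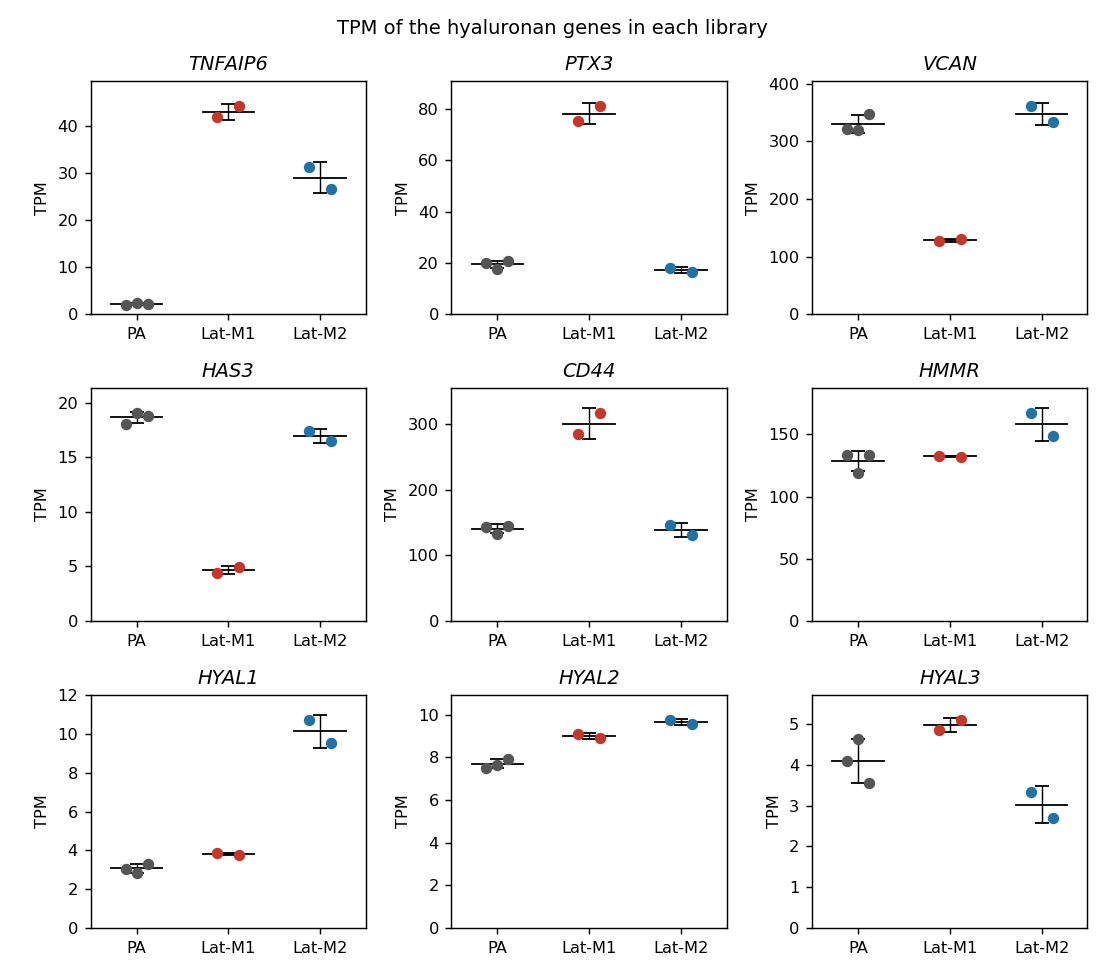
TPM (vertical axes, linear, from 0) of the 9 genes in PA, Lat-M1 and Lat-M2. Points are libraries, long bars are group means and whiskers are 1 SD. TNFAIP6 is high in both Lat-M pairs, PTX3 and CD44 are high and HAS3 and VCAN low in Lat-M1 alone among the 3 groups, and HYAL1 is highest in Lat-M2.

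PTX3, the other cytokine-inducible matrix protein, rose in Lat-M1 and showed no such rise in Lat-M2. PTX3 was at 19.8, 17.8 and 20.6 TPM in PA, at 75.2 and 81.1 TPM in Lat-M1 and at 18.0 and 16.4 TPM in Lat-M2. Both Lat-M1 values were above every other library, and the Lat-M2 values overlapped those of PA. The rise in Lat-M1 was 4.03-fold (log2 fold change 1.96 ± 0.081 SE, limma adjusted p = 3.41e-06). In Lat-M2 against PA the log2 fold change was -0.16 (95% interval -0.35 to 0.027, limma adjusted p = 0.208), and scaling made it a fall (-0.31, limma adjusted p = 0.0147). The pairs differed by -2.12 ± 0.088 (Lat-M2 against Lat-M1, limma adjusted p = 5.35e-06). The order of the levels was Lat-M1, Lat-M2, PA for TNFAIP6. For PTX3 it was Lat-M1 first, then PA and Lat-M2, which did not differ beyond their spread as deposited.

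VCAN, the most abundant of the 9 in PA, fell in Lat-M1. VCAN encodes a large chondroitin sulfate proteoglycan whose end domain binds hyaluronan. It was at 322, 320 and 348 TPM in PA, at 127 and 131 TPM in Lat-M1 and at 361 and 334 TPM in Lat-M2. The Lat-M1 libraries were below all others, and the PA and Lat-M2 ranges overlapped. PA was 2.57-fold of Lat-M1 (log2 fold change -1.35 ± 0.063 SE, limma adjusted p = 5.96e-06). In Lat-M2 against PA the log2 fold change was 0.076 (95% interval -0.072 to 0.22, limma adjusted p = 0.435), and scaling turned its sign without a call (-0.077). VCAN was 2.71-fold higher in Lat-M2 than in Lat-M1 (1.43 ± 0.069, limma adjusted p = 1.04e-05).

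HAS3, a hyaluronan synthase of the plasma membrane and the synthase analysed here, fell along with VCAN in Lat-M1. HAS3 stood at 18.1, 19.1 and 18.8 TPM in PA, at 4.41 and 4.93 TPM in Lat-M1 and at 17.4 and 16.5 TPM in Lat-M2. The groups did not overlap, and Lat-M1 lay far below the others. PA was 3.99-fold of Lat-M1 (log2 fold change -1.79 ± 0.070 SE, limma adjusted p = 2.56e-06). The log2 fold change of Lat-M2 against PA was -0.13 (95% interval -0.30 to 0.030, limma adjusted p = 0.225). Scaling made that a fall (-0.28, limma adjusted p = 0.0134). HAS3 was 3.62-fold higher in Lat-M2 than in Lat-M1 (1.66 ± 0.076, limma adjusted p = 8.26e-06).

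CD44, the main cell-surface receptor of hyaluronan, rose in Lat-M1. CD44 was at 143, 133 and 145 TPM in PA, at 284 and 317 TPM in Lat-M1 and at 146 and 130 TPM in Lat-M2. Lat-M1 was above all other libraries, and PA and Lat-M2 overlapped. The rise was 2.14-fold (log2 fold change 1.09 ± 0.079 SE, limma adjusted p = 4.77e-05). The log2 fold change of Lat-M2 against PA was -0.021 (95% interval -0.21 to 0.16, limma adjusted p = 0.875), and scaling brought a small fall past the threshold (-0.17, limma adjusted p = 0.0484). Lat-M2 was below Lat-M1 (-1.11 ± 0.086, limma adjusted p = 9.32e-05). TPM per gene does not separate the splice forms of CD44 or VCAN. VCAN also overlaps the antisense gene VCAN-AS1 in RefSeq, and whether the counting used strand is not given.

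HMMR, also called RHAMM, binds hyaluronan at the surface and works inside the cell on the mitotic spindle. It was at 133, 119 and 133 TPM in PA, at 133 and 132 TPM in Lat-M1 and at 167 and 149 TPM in Lat-M2. The Lat-M2 values were the highest, and Lat-M1 lay within the PA range. The log2 fold change of Lat-M1 against PA was 0.045 (limma adjusted p = 0.659) and became -0.13 on scaling, again without a call. HMMR rose in Lat-M2 (0.30 ± 0.075 SE, limma adjusted p = 0.0419), a call that ended on scaling (0.14, limma adjusted p = 0.144), with no filter (limma adjusted p = 0.0882) and in 6 of 7 fits without 1 library. In those 7 fits the limma adjusted p was 0.0276 to 0.185, and it stayed past the threshold without Lat-M2 library 2. Lat-M2 against Lat-M1 missed the threshold (0.25, limma adjusted p = 0.0509) and passed it on scaling (0.27, limma adjusted p = 0.0127).

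HYAL1, the lysosomal hyaluronidase, was the gene of the 9 that rose in Lat-M2 by the most among those tested. HYAL1 was at 3.05, 2.83 and 3.32 TPM in PA, at 3.85 and 3.78 TPM in Lat-M1 and at 10.8 and 9.55 TPM in Lat-M2. Both Lat-M2 values were above all others, and Lat-M1 lay slightly above PA. The rise in Lat-M2 was 3.31-fold (log2 fold change 1.45 ± 0.098 SE, limma adjusted p = 0.000311). In Lat-M1 the log2 fold change was 0.24 (95% interval 0.014 to 0.48, limma adjusted p = 0.0814). Lat-M2 exceeded Lat-M1 2.66-fold (1.21 ± 0.11, limma adjusted p = 0.000191).

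HYAL2, a hyaluronidase anchored at the cell surface, differed little between groups. It was at 7.51, 7.66 and 7.92 TPM in PA, at 9.09 and 8.9 TPM in Lat-M1 and at 9.77 and 9.55 TPM in Lat-M2, without overlap between the groups. It passed the test in Lat-M1 (0.20 ± 0.066 SE, limma adjusted p = 0.0425) and likewise in Lat-M2 (0.29 ± 0.066, limma adjusted p = 0.0302). The Lat-M1 rise was close to the median of all tested genes, 0.16, and the Lat-M2 rise was above its median, 0.14. Scaling ended both calls (0.042, limma adjusted p = 0.584, and 0.16, limma adjusted p = 0.119). Leaving out 1 library gave a limma adjusted p of 0.0471 to 0.182 in Lat-M1, lost without any single PA or Lat-M1 library, and of 0.0525 to 0.131 in Lat-M2, lost in all 7 such fits.

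HYAL3, another hyaluronidase-like gene of the same cluster, was at 4.1, 4.63 and 3.55 TPM in PA, at 4.87 and 5.11 TPM in Lat-M1 and at 3.35 and 2.71 TPM in Lat-M2. Lat-M1 was highest and Lat-M2 lowest, with no overlap. Neither pair passed against PA (limma adjusted p = 0.169 and 0.116). Lat-M2 was lower than Lat-M1 (-0.58 ± 0.14 SE, limma adjusted p = 0.0164). That call was lost without Lat-M1 library 1 (limma adjusted p = 0.0638), without Lat-M1 library 2 (0.0857) and without Lat-M2 library 2 (0.0827). HYAL3 overlaps NAT6, now NAA80, in RefSeq, so reads may have been split between them, and NAT6 missed the test against PA in both pairs (limma adjusted p = 0.524 and 0.903).

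The 3 hyaluronidase transcripts summed to 14.9 ± 0.238 TPM over the PA libraries (SD, n = 3). Their sum was 17.8 ± 0.0104 TPM for Lat-M1 and 22.8 ± 1.46 TPM for Lat-M2 (SD, n = 2 each). These sums are unscaled and include the shift shared with most genes. On scaling, HYAL1, HYAL2 and HYAL3 had log2 fold changes of 0.11, 0.042 and 0.094 in Lat-M1 against PA, without a call. HYAL1 made up 20.7 ± 1.86% of the PA sum, 21.4 ± 0.242% of the Lat-M1 sum and 44.4 ± 0.895% of the Lat-M2 sum. HYAL2 held 51.8 ± 1.55%, 50.5 ± 0.743% and 42.4 ± 2.04% in the same order. The makeup was thus alike in PA and Lat-M1, while in Lat-M2 HYAL1 reached the level of HYAL2. These shares were compared by their spread only.

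**Figure D2:**
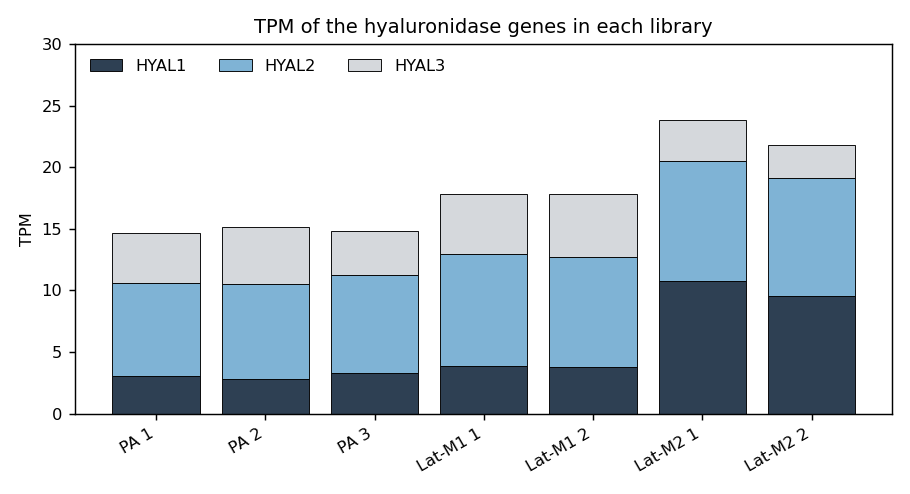
Stacked TPM (vertical axis, from 0) of HYAL1, HYAL2 and HYAL3 in each of the 7 libraries. The HYAL1 part is 2.83 to 3.85 TPM in PA and Lat-M1 and 10.8 and 9.55 TPM in Lat-M2.

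Leaving out TNFAIP6, which was chosen on these comparisons, 3 of 8 genes were higher and 2 lower in Lat-M1 against PA. Among all tested genes 33.2% were higher and 11.6% lower, 44.8% in all, so the count of 5 of 8 is near the background. The groups did not overlap for 7 of the 8, against 68% of all tested genes. The median log2 fold change of the 8 was 0.22, against 0.16 for all tested genes. On scaling 2 were higher and 2 lower, and all tested genes split into 4000 higher and 3842 lower in place of 5558 and 1941. PTX3, CD44, HAS3 and VCAN, whose log2 fold changes in Lat-M1 exceeded 1 in size, passed under every alternative run, and 8.39% of all tested genes had a fold change of that size.

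Against PA, Lat-M2 had 3 of the 8 higher and none lower, where 12.7% of tested genes were higher and 2.24% lower, 14.9% in all. The groups did not overlap for 5 of 8, against 49.8% of tested genes, and the median of the 8 was 0.027 against 0.14. Scaling changed the calls to 1 higher (HYAL1) and 3 lower (HAS3, CD44 and PTX3), and those of all tested genes from 2119 higher and 375 lower to 1245 and 1405. Without PA 1, PA 2, PA 3, Lat-M1 1, Lat-M1 2 or Lat-M2 1 the count was 1, HYAL1, and without Lat-M2 2 it was 2. The comparisons of the pairs with PA share the same PA libraries.

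Lat-M2 against Lat-M1 called 7 of the 9, 3 higher (HAS3, VCAN and HYAL1) and 4 lower (TNFAIP6, CD44, HYAL3 and PTX3), with HMMR and HYAL2 missing the threshold. Among all tested genes 16% were higher and 20.1% lower, 36% in all. The pairs did not overlap for 9 of the 9, against 68.3% of tested genes, and the median log2 fold change of the 9 was 0.093 against -0.011. With the 4 Lat-M libraries as 1 group against PA, a fit whose spread includes the difference between the pairs, limma called 0 of the 8 genes other than TNFAIP6, with 2 at an unadjusted p under 0.05. It called 2.9% of all tested genes. The 4 Lat-M values did not overlap PA for 3 of the 8 (HAS3, HYAL1 and HYAL2), against 28.5% of tested genes.

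**Figure D3:**
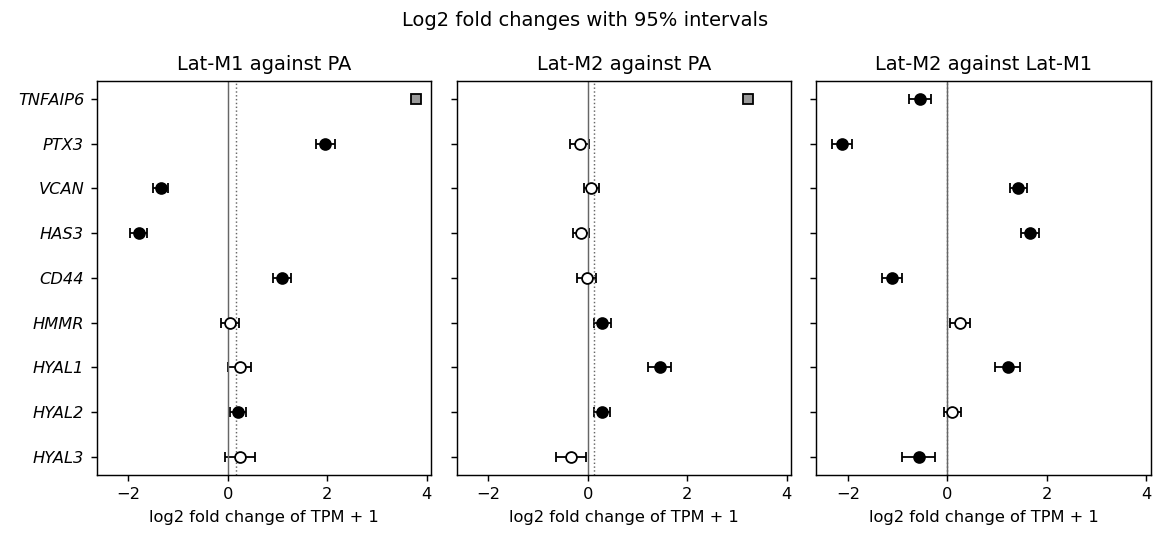
Log2 fold changes of TPM + 1 (horizontal axes) for the 9 genes in Lat-M1 against PA, Lat-M2 against PA and Lat-M2 against Lat-M1. Whiskers are 95% intervals from limma, filled circles passed the adjusted threshold of 0.05, open circles did not, grey squares are TNFAIP6 against PA, which was not tested, and the dotted line is the median of all tested genes. PTX3 and CD44 lie to the right and HAS3 and VCAN to the left in Lat-M1, and HYAL1 lies to the right in Lat-M2.

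The partners of these genes were taken from lists set by function, with earlier results of these data known. List counts after scaling were added after the data were seen. Each list's counts before scaling are to be read against the 33.2% of all tested genes higher and 11.6% lower in Lat-M1. For Lat-M2 these shares were 12.7% and 2.24%, and the medians of all tested genes were 0.16 and 0.14. Counts after scaling have another background. Scaling gave 4000 of all tested genes higher and 3842 lower in Lat-M1, and 1245 higher and 1405 lower in Lat-M2. Of 11 further genes of hyaluronan synthesis and its precursor sugars, 9 were tested, and 2 were higher and 1 lower in Lat-M1. HK1, a hexokinase, and PGM3, an enzyme of the UDP-N-acetylglucosamine route, were higher in Lat-M1 (log2 fold changes 0.59 and 0.40, limma adjusted p = 0.000674 and 0.00201). GPI, a glycolytic isomerase, was lower there (-0.29, limma adjusted p = 0.00544), and the other 6 missed the test. UGDH, which makes the UDP-glucuronic acid that hyaluronan synthases use, was the gene that passed in Lat-M2. It went from 257 TPM in PA to 326 TPM (0.34, limma adjusted p = 0.0294). The list's median was 0.11 in Lat-M1 and -0.011 in Lat-M2. Scaling ended the UGDH call (0.18, limma adjusted p = 0.0511) and gave 2 higher and 3 lower for Lat-M1, and 0 higher and 5 lower for Lat-M2, HK1 and PGM3 among them.

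Among breakdown and uptake genes, 7 of 14 symbols were listed and 4 tested. In Lat-M1, where 33.2% of all tested genes were higher, 3 of the 4 were higher and none lower, among them HEXA (0.52, limma adjusted p = 0.000353), which encodes a lysosomal hexosaminidase subunit, and TMEM2, a cell-surface protein reported to cut hyaluronan. TMEM2 was at 44.6 TPM in PA, 62.7 TPM in Lat-M1 and 55.2 TPM in Lat-M2, and it was the gene of the 4 that also passed in Lat-M2 (0.48 and 0.30, limma adjusted p = 0.000544 and 0.019). KIAA1199, also called CEMIP and a hyaluronan-depolymerising protein, was at most 0.0135 TPM in any library. The uptake receptor STAB2 did not pass 0.00937 TPM, and the receptor LAYN did not pass 0.032 TPM. List medians were 0.33 in Lat-M1 and 0.070 in Lat-M2. On scaling 2 were higher and 1 lower in Lat-M1, and 1 higher and 1 lower in Lat-M2. HEXA kept its call in Lat-M1 and TMEM2 kept its calls in both pairs.

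Transcripts of the inter-alpha-inhibitor family, whose heavy chains TNFAIP6 transfers, were low in all 3 groups. The 4 listed heavy-chain family genes, ITIH2, ITIH3, ITIH4 and ITIH5, reached at most 1.03 TPM in any library. AMBP, the source of the light chain bikunin, was at 2.09 TPM in PA, 1.2 TPM in Lat-M1, where it fell (-0.49 ± 0.14 SE, limma adjusted p = 0.029), and 1.69 TPM in Lat-M2. The listed link proteins and brain proteoglycans, with HABP2, reached at most 0.481 TPM. Of this list of 18, 4 were tested. In Lat-M1 1 was higher and 2 lower, against 33.2% and 11.6% of all tested genes, and none passed the test in Lat-M2. The others that passed were HABP4 (-0.71, limma adjusted p = 0.0013), which despite its name acts mostly inside the cell, and CLPX (0.51, limma adjusted p = 0.0042), a mitochondrial chaperone that is no matrix protein. The medians were -0.25 and 0.030, and scaling gave 1 higher and 3 lower in Lat-M1.

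Of 14 versican partners and proteases 7 passed the filter on low values. FBN1, the microfibril protein fibrillin-1, was at 0.455 TPM in PA, 4.03 TPM in Lat-M1 and 1.04 TPM in Lat-M2. It passed the filter through the Lat-M1 libraries, where it is high, so it is described without a test. Of the other 6, 4 were higher and 1 lower in Lat-M1, where 33.2% of all tested genes were higher and 11.6% lower. CHSY1 and CHPF, which build the chondroitin sulfate chains, rose (0.91 and 0.95, limma adjusted p = 0.000108 and 0.00063). FBLN1, fibulin-1, rose in Lat-M1 (0.62, limma adjusted p = 0.00174) and fell in Lat-M2 (-0.42, limma adjusted p = 0.0313), the sole call of the list there. The medians of the 6 were 0.53 and 0.14, against 0.16 and 0.14 for all tested genes, and scaling left their counts of calls the same.

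Of 15 genes tied to CD44, 11 passed the filter on low values. CD74, which pairs with CD44 as a receptor for the cytokine MIF, was at 0.153 TPM in PA, 11 TPM in Lat-M1 and 5.71 TPM in Lat-M2. It passed the filter through the Lat-M libraries and is likewise described without a test. Of the other 10, 6 were higher and 1 lower in Lat-M1 (33.2% and 11.6% of all tested genes), and 2 were higher and none lower in Lat-M2 (12.7% and 2.24%). ANK3 and MSN, which tie membrane proteins to the cytoskeleton, rose in Lat-M1 (1.73 and 0.79, limma adjusted p = 4.93e-05 and 0.000112). MMP14, a membrane protease that sheds CD44, fell in Lat-M1 (-1.27, limma adjusted p = 6.33e-05) and rose in Lat-M2 (0.38, limma adjusted p = 0.0436). The medians of the 10 were 0.41 and 0.087. On scaling their counts were 6 higher and 2 lower in Lat-M1, and 1 higher and 1 lower in Lat-M2, where the MMP14 call ended (0.23, limma adjusted p = 0.152). Of 14 tested spindle and mitosis genes beside HMMR, 5 were higher and 4 lower in Lat-M1, against 33.2% and 11.6% of all tested genes, BARD1 and CENPE among the rises and AURKA and BRCA1 among the falls (limma adjusted p = 0.0123, 0.0169, 0.0142 and 0.0172). None of the 14 passed in Lat-M2 (0 at the adjusted limma threshold, 5 at an unadjusted p under 0.05), and the medians were 0.092 and 0.10. Scaling turned the Lat-M1 split to 1 higher and 6 lower, with CENPE and BARD1 no longer past the test (limma adjusted p = 0.0583 and 0.0533).

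**Figure D4:**
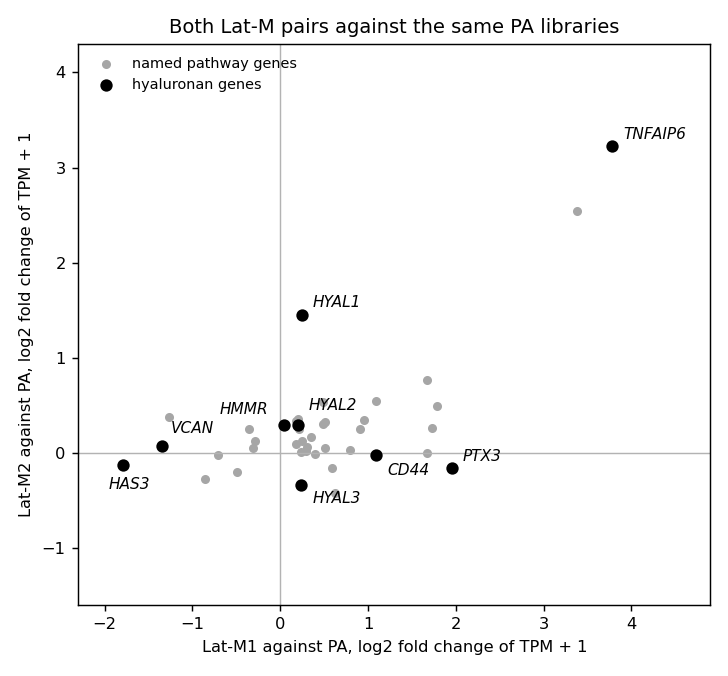
Log2 fold changes of TPM + 1 against PA in Lat-M1 (horizontal axis) and Lat-M2 (vertical axis), which share the same PA libraries. Black points are the 9 hyaluronan genes and grey points the partner genes named by rule. TNFAIP6 is at 3.78 and 3.23, PTX3 at 1.96 and -0.16, and HYAL1 at 0.24 and 1.45.

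Other genes whose symbols begin with TNFAIP, for induction by tumour necrosis factor or for likeness to such a gene, moved in both directions. TNFAIP3, an inhibitor of NF-kB signalling, was at 8.15 TPM in PA, 28.2 TPM in Lat-M1 and 8.13 TPM in Lat-M2 (1.67 and -0.00057, limma adjusted p = 5.79e-06 and 0.997). TNFAIP2 rose in both pairs (1.09 and 0.54, limma adjusted p = 0.000111 and 0.0143), TNFAIP1 rose in Lat-M1 (0.24, limma adjusted p = 0.00977) and TNFAIP8 fell there (-0.85, limma adjusted p = 0.000173). Of 5 tested, TNFAIP8L1, a relative of TNFAIP8, among them, 3 were higher and 1 lower in Lat-M1. Of all tested genes 33.2% were higher and 11.6% lower there. In Lat-M2 1 was higher, against 12.7%, and the medians were 0.24 and -0.00057. Scaling ended the TNFAIP1 rise (0.064, limma adjusted p = 0.134) and made TNFAIP1 and TNFAIP8 lower in Lat-M2 (limma adjusted p = 0.0261 and 0.00308). Of the 2 tested pentraxin relatives and PTX3 ligands, NPTXR rose in both pairs (0.48 and 0.54, limma adjusted p = 0.00593 and 0.0164). The growth factor FGF2, which PTX3 binds, rose in Lat-M2 (0.35, limma adjusted p = 0.0223).

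Of 16 neighbours of the HYAL cluster, 11 were tested, and 1 was higher in Lat-M2, SEMA3F, a secreted guidance protein, which was at 1.31 TPM in PA, 6.35 TPM in Lat-M1 and 2.93 TPM in Lat-M2 (1.67 and 0.77, limma adjusted p = 3.96e-05 and 0.00956). In Lat-M1 4 of the 11 were higher and none lower, near the 33.2% of all tested genes that were higher. The others were GNAI2, CYB561D2 and IFRD2 (0.29, 0.25 and 0.22, limma adjusted p = 0.02, 0.0321 and 0.0448). The medians were 0.15 and 0.12, close to those of all tested genes. Scaling gave 1 higher and 1 lower in Lat-M1, kept the SEMA3F calls and ended those of GNAI2, CYB561D2 and IFRD2 (limma adjusted p = 0.115, 0.479 and 0.388).

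Fibroblasts also make TNFAIP6, PTX3, VCAN and CD44, so markers of other cell types were read beside them. The 9 fibroblast markers summed to 1.44 to 1.78 TPM in PA, 20.1 to 21.7 TPM in Lat-M1 and 3.13 to 4.15 TPM in Lat-M2. Of the 9, 8 stayed under 1 TPM in every library, PDGFRB, DCN, LUM and COL3A1 among them, and the sum moved with COL1A1 (3.26 for Lat-M1 and 0.98 for Lat-M2, limma adjusted p = 2.29e-06 and 0.00495). Leukocyte markers summed to 1.43 to 2.02, 4.78 to 5.06 and 2.34 to 2.84 TPM, mostly from ITGAM, and PTPRC did not pass 0.0121 TPM. Endothelial markers summed to at most 0.0255 TPM. In these bulk libraries a change in the number of cells of a kind and a change in RNA per cell cannot be told apart.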

How the data were processed

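Gene expression was measured by RNA sequencing in 7 libraries of 769-P cells, 3 of PA and 4 of Lat-M. Per the labels' protocols, RNA came from an RNeasy extraction and was made into libraries by a TruSeq or a NEBNext Ultra kit. Per the submitters' processing notes, TopHat2 2.2.4 and hg19 were used; the quantifier, annotation and filters are not given in the sources used here. The deposited files give TPM, a unit read from the values: each library sums to 1e+06.

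Symbols came from the files. Genes whose mean reached 1 TPM were tested on log2(TPM + 1) with limma 3.58.1 in R 4.3.3, using its trend and robust settings. The Benjamini-Hochberg threshold was 0.05. The groups PA, Lat-M1 and Lat-M2 shared 1 fit, and Lat-M against PA used a fit of 2 groups. The method was tested on simulated data. The members and lists were chosen with earlier results of these data known. The named genes were all members, and up to 4 per list with the largest log2 fold change among those past the test against PA. Promoters are RefSeq's, build GRCh38.p14. Alternatives were a pseudocount of 0.1, no filter, a minimum mean of 5 TPM, 2 rescalings, each library left out, a replicate block and, for Lat-M, a contrast within the fit of 3 groups. Of the list symbols, 28 were not analysed here. Some genes named by the rule are not reported here.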

Additional observations from a re-analysis of the deposited data

Results flagged for a closer look

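The effects of the pairs against PA differed for 7 of the 9 genes, as tested by limma in Lat-M2 against Lat-M1. That comparison called 36% of all tested genes. The log2 difference was -0.556 for TNFAIP6, 1.66 for HAS3, -1.11 for CD44, 1.21 for HYAL1, -0.578 for HYAL3, 1.43 for VCAN and -2.12 for PTX3. All but HYAL3 passed in every fit without 1 library.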

How the results depend on the processing

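Of the single-gene results, HAS3, CD44, VCAN and PTX3 in Lat-M1, HYAL1 in Lat-M2, and TNFAIP6, HAS3, CD44, VCAN, PTX3 and HYAL1 between the pairs kept direction and call under all alternatives run. Sign turned without a call for HMMR in Lat-M1 (-0.132 scaled, -0.153 with the structural RNAs left out, -0.00691 to 0.0718 without 1 library), VCAN in Lat-M2 (-0.0774 and -0.0286), CD44 in Lat-M2 (0.00444 with the replicate block, -0.103 to 0.0609 without 1 library) and HYAL3 in Lat-M (-0.155 to 0.0855 without 1 library). Counts of called genes without 1 library were 4679 to 7932 for Lat-M1 against PA, 492 to 3162 for Lat-M2 against PA, 3815 to 5852 for Lat-M2 against Lat-M1 and 18 to 1861 for Lat-M against PA, against 7499, 2494, 6022 and 485. The fewest were without Lat-M1 2, Lat-M2 1, Lat-M1 2 and PA 2, and every library moved the Lat-M count over 1.5 times. Of the 8 members 1 to 2 passed in Lat-M2 without 1 library. With no filter 1529 genes were called in Lat-M2 and 107 in Lat-M. Lat-M gave 208 scaled, 180 with the structural RNAs left out, and 6106 (6 of 8 members) as a contrast within the fit of 3 groups. HYAL3 has no value at a minimum mean of 5 TPM. The cause was not tested.

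With the replicate block, Lat-M2 against PA had 943 genes and 1 member, and Lat-M against PA had 0 genes, with 2060 at an unadjusted p under 0.05 in limma. No pairing by number was seen: deviations of same-numbered libraries correlated at -0.082 to 0.0312. Deviations within each Lat-M pair mirror each other, and a shift of a whole library drops out of a correlation. The check therefore cannot exclude pairing. A fit that leaves a pair with 1 library assumes that it varies like the others. Depth is unknown, so the counting error of low levels cannot be estimated here.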

Other observations

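The 5 genes whose levels followed TNFAIP6 most closely over the 7 libraries, among 1921 tested genes with group means at least 1 log2 unit apart, were PRUNE2, MCTP2, NHSL1, DDO and FAM189A1 (Pearson's r 0.9996, 0.9988, 0.9986, 0.9968 and 0.9966 on log2 values). The 7 points form 3 groups of libraries, so r mostly reflects the order of 3 group means. Of the 1921 genes, 71 had an r of at least 0.95. The ranking follows the rise for which TNFAIP6 was chosen, and it is a description without a test. PRUNE2 and MCTP2 were below 1 TPM in PA and passed the filter on low values through the Lat-M libraries, where they are high. PRUNE2 was at 0.761 TPM in PA, 4.4 TPM in Lat-M1 and 3.59 TPM in Lat-M2. NHSL1 was at 4.48, 10.4 and 9.25 TPM. DDO, an oxidase of D-aspartate, was at 1.72, 6.34 and 5.21 TPM. None reached the level of TNFAIP6 in the Lat-M pairs.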
